A study of Sus scrofa with 12 samples.

Results

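The aryl hydrocarbon receptor (AHR) is a ligand-activated transcription factor, and 8 genes of its pathway were followed across all treatments of porcine aortic valve interstitial cells (paVICs). The genes were chosen by name as the rows of the deposited count table with the symbols AHR, ARNT, AHRR, TIPARP, CYP1A1, CYP1B1, NQO1, and ALDH3A1, which are 8 of 31908 genes in the table. All 8 passed the filter on low counts, as did 13216 genes in all. Libraries of poly-A mRNA were made from paVICs, the fibroblast-like cells of the valve leaflet, after 24 h of treatment in medium with low serum. The groups were vehicle (0.6% DMSO and 0.1% ethanol), 10 μM lysophosphatidylcholine (LPC) with 0.6% DMSO, 60 μM dantrolene (Dan) with 0.1% ethanol, and LPC + dantrolene at the same doses (n = 3 per group). By the paper's methods dantrolene was dissolved in DMSO and LPC in ethanol, so each agent also brought its own solvent. LPC is a lysolipid used to drive calcification of these cells, and dantrolene is an inhibitor of ryanodine receptors, the channels that release calcium from the endoplasmic reticulum. Each of the 3 replicates was a separate isolation from pooled pig hearts cultured on its own day, and each isolation gave 1 library to every group.

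In its resting state AHR is held in the cytoplasm by a chaperone complex that includes HSP90 and p23 (PTGES3). A bound ligand sends it to the nucleus, where it pairs with ARNT and binds enhancers of its target genes. CYP1A1 and CYP1B1, which encode monooxygenases that oxidize the ligands, are the classical targets and are widely used as readouts of receptor activity. AHRR and TIPARP are also targets, and their products act back on the pathway as repressors. AHR is known in many tissues for the response to dioxins and polycyclic aromatic hydrocarbons, and also responds to tryptophan metabolites and to a number of drugs.

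The libraries held 16489684 to 24105935 counts on genes, and 3 counts corresponded to 0.114 to 0.186 CPM (counts scaled to a common library size), a floor for counting error alone. Levels are given as CPM after scaling by trimmed mean of M values (TMM) factors, and they are compared between samples, not between genes, since gene lengths were not used. Interstitial cell markers were abundant in every library, with 10 of 10 detected and a summed level of 44521 to 81767 CPM. Smooth muscle markers summed to 22889 to 34971 CPM with vehicle, 15919 to 26198 CPM with LPC, 15423 to 23029 CPM with dantrolene, and 9440 to 32784 CPM with LPC + dantrolene. Leukocyte markers summed to 16.6 to 36.2 CPM, with CD14 at 10.3 to 24.5 CPM. Of the 10 leukocyte markers 4 were below 1 CPM in every library, with PTPRC and CD3E at 0. Endothelial markers summed to 108 to 178 CPM, with ERG at 39.7 to 87.2 CPM, PECAM1 at 23.6 to 44.1 CPM, and KDR at most 0.238 CPM. Endothelial sums were 143 to 178 CPM with vehicle, 108 to 144 CPM with LPC, 123 to 129 CPM with dantrolene, and 112 to 115 CPM with LPC + dantrolene, and the part of both cell types in the results was not tested. The 5 cardiomyocyte markers in the table summed to less than 2 CPM. LPC + dantrolene replicate 2 stood apart from the other libraries, with a mean distance of 63.4 to them over the 500 most variable genes (log2 CPM), against 41.4 to 47.1 for the others. In these bulk libraries a change in the number of expressing cells and a change in RNA per cell cannot be told apart.

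The effect of dantrolene on the pathway was examined first. CYP1A1 and CYP1B1 were far higher with dantrolene than without it, whether or not LPC was present, and TIPARP, AHRR, and NQO1 were higher by 1.33 to 1.94 on the log2 scale than in vehicle. ARNT and ALDH3A1 did not pass the test in any comparison. Against vehicle, 6 of 8 genes rose with dantrolene and 6 of 8 with LPC + dantrolene, at a Benjamini-Hochberg adjusted p under 0.05 in edgeR's quasi-likelihood test. Over all genes tested, 7.54% were called higher and 1.26% lower with dantrolene, and 6.23% higher and 0.9% lower with LPC + dantrolene. The median log2 fold change of the 8 genes was 1.46 in both comparisons, against −0.11 and −0.08 over all genes tested. The 8 genes were chosen with earlier results of these data known, so their counts and medians are in part set by the choice. Both comparisons use the same vehicle libraries, so they are not independent of each other.

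**Figure D1:**
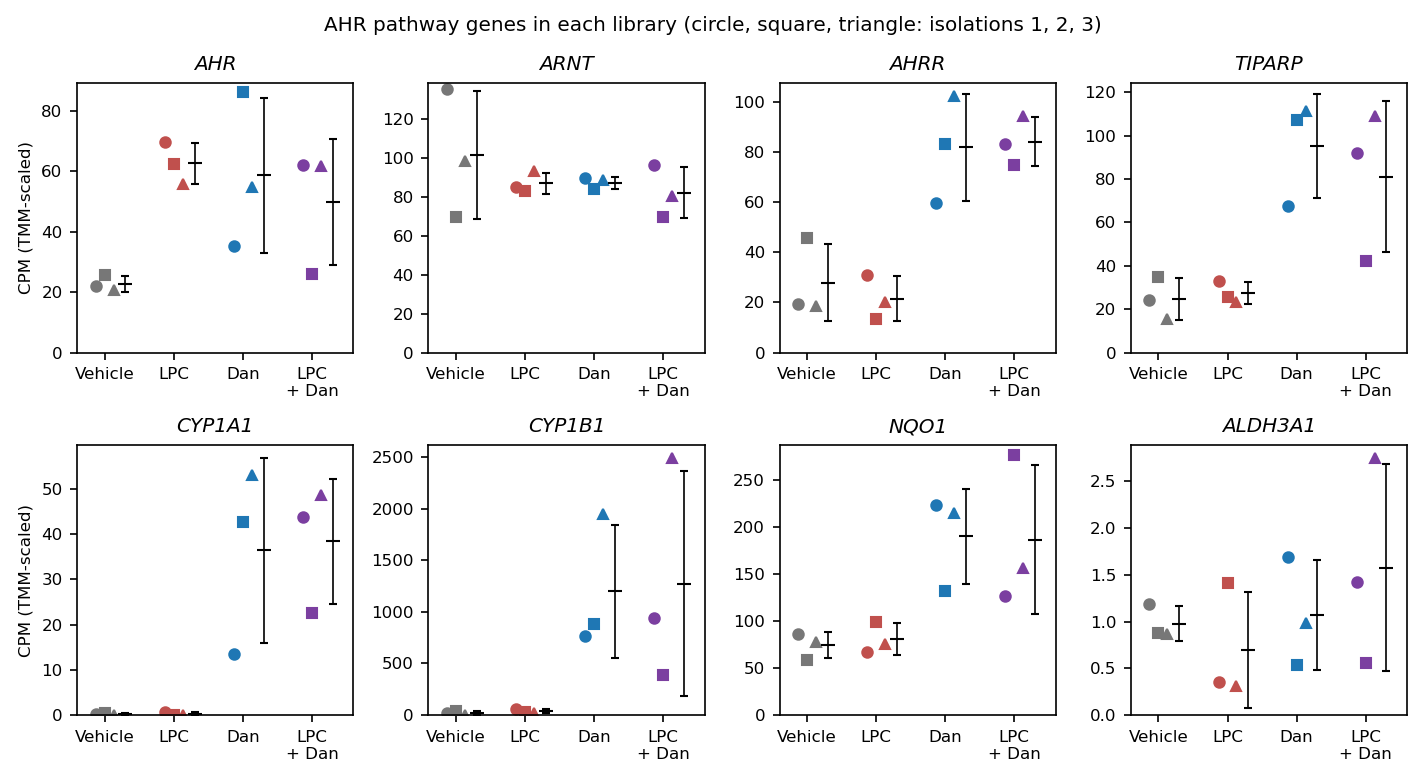
Level of each of the 8 genes in each library (CPM, TMM-scaled, linear axes from 0) by group, with the symbol giving the isolation and the black dash and bar the mean ± SD (n = 3). CYP1A1 lies between 13.5 and 53.0 CPM in the 6 libraries with dantrolene and at or below 0.614 CPM in the 6 without it, while ARNT lies between 69.7 and 135 CPM throughout.

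CYP1A1 (ENSSSCG00000001906, chromosome 7, 58802887 to 58809155 in Sscrofa11.1, RefSeq gene span) was almost silent without dantrolene. Its counts were 5, 8, and 1 in the vehicle libraries and 12, 0, and 0 with LPC. With dantrolene they were 247, 1122, and 972, and with LPC + dantrolene 835, 364, and 973. No library with dantrolene overlapped any library without it. CYP1A1 passed the filter on low counts only through the libraries with dantrolene. Its calls in every comparison of groups with and without dantrolene are therefore no separate support for its rise beyond these counts. The mean level was 36.4 ± 20.5 CPM with dantrolene and 38.4 ± 13.9 CPM with LPC + dantrolene (SD, n = 3). The log2 fold change against vehicle was 7.13 (SE 0.58, adjusted p = 2.14e-16) with dantrolene and 7.21 (SE 0.58, adjusted p = 1.32e-16) with LPC + dantrolene. Taken from the summed counts alone, the ratio of dantrolene to vehicle was 147 with a 95% counting interval of 87.5 to 270, on only 14 counts in the vehicle group. That interval covers counting error alone and leaves out the spread between libraries. The fitted fold was 140, with a wider 95% CI of 63.1 to 311. Without vehicle replicate 2 the log2 fold changes were 7.82 and 7.89. CYP1A2, its neighbor on chromosome 7 and a target of the same receptor, had 5 counts in all libraries together and was not tested.

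CYP1B1 (ENSSSCG00000033844), the other classical target, was present at a low level in vehicle and became abundant with dantrolene. Its level was 22.6, 40.7, and 4.88 CPM in the vehicle libraries and 60.1, 29.8, and 20.6 CPM with LPC. With dantrolene it was 769, 885, and 1943 CPM, and with LPC + dantrolene 944, 385, and 2492 CPM. The lowest library with dantrolene was thus above the highest without it. The log2 fold change against vehicle was 5.72 (SE 0.51, adjusted p = 2.26e-14) with dantrolene and 5.81 (SE 0.52, adjusted p = 1.29e-14) with LPC + dantrolene. The size of the change rested in part on single libraries. It was 6.44 with dantrolene and 6.53 with LPC + dantrolene when vehicle replicate 2 was left out, and 4.87 with LPC + dantrolene when its replicate 3 was left out.

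TIPARP (ENSSSCG00000027646, chromosome 13, 96496386 to 96524879) encodes a mono-ADP-ribosyltransferase that marks AHR for degradation. Its level was 24.1, 34.7, and 15.6 CPM in vehicle and 33.1, 25.5, and 23.4 CPM with LPC. It was 67.6, 107, and 111 CPM with dantrolene and 92.1, 42.1, and 109 CPM with LPC + dantrolene, again with no overlap. The rise over vehicle was 1.94 on the log2 scale (SE 0.35, adjusted p = 4.00e-05) with dantrolene and 1.71 (SE 0.35, adjusted p = 0.000263) with LPC + dantrolene. Of the libraries with LPC + dantrolene, replicate 2 was the lowest for TIPARP, CYP1A1, and CYP1B1, and without it the TIPARP value was 2.07.

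AHRR (ENSSSCG00000032843, chromosome 16, 79730920 to 79810183) encodes the AHR repressor, which competes with AHR for ARNT. It stood at 19.5, 45.8, and 18.5 CPM in vehicle and 31.1, 13.2, and 20.1 CPM with LPC. Dantrolene libraries held 59.8, 83.4, and 102 CPM, and LPC + dantrolene libraries 83.0, 74.9, and 94.3 CPM. All 6 were higher than the highest vehicle library, which was replicate 2. AHRR rose by 1.55 on the log2 scale (SE 0.35, adjusted p = 0.000901) with dantrolene and by 1.59 (SE 0.35, adjusted p = 0.000721) with LPC + dantrolene.

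NQO1 (ENSSSCG00000002754, chromosome 6, 17292962 to 17302593) encodes a quinone reductase whose gene is a target of both AHR and NRF2. Its levels were 86.2, 59.0, and 77.7 CPM in vehicle and 67.2, 99.4, and 76.1 CPM with LPC. They were 224, 132, and 215 CPM with dantrolene and 127, 277, and 157 CPM with LPC + dantrolene. The groups with and without dantrolene did not overlap, and LPC + dantrolene replicate 2, lowest of its group for both CYP1 genes, was the highest for NQO1. The log2 fold change was 1.36 (SE 0.33, adjusted p = 0.0026) with dantrolene and 1.33 (SE 0.33, adjusted p = 0.00346) with LPC + dantrolene. Neither call held without vehicle replicate 2, where the values were 1.22 (adjusted p = 0.0601) and 1.19 (adjusted p = 0.0750). Without LPC + dantrolene replicate 2, the library that stood apart, the log2 fold changes of LPC + dantrolene against vehicle were 7.53 for CYP1A1, 6.28 for CYP1B1, 1.72 for AHRR, and 0.99 for NQO1, all still called.

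**Figure D2:**
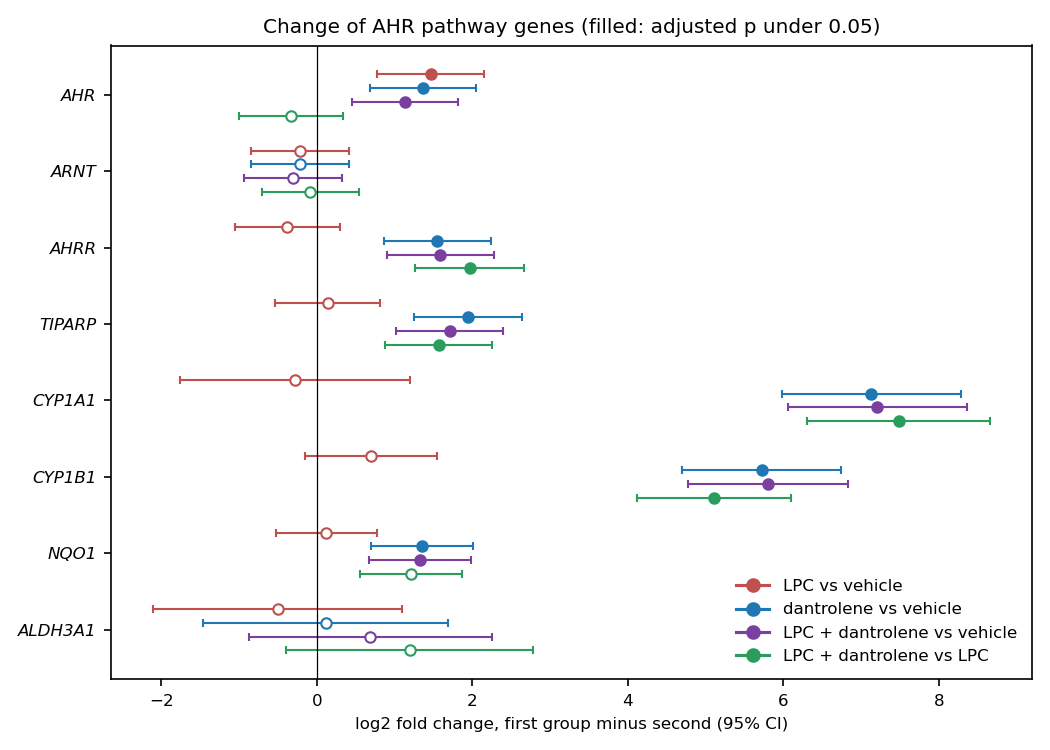
Fitted log2 fold change (horizontal axis) of each gene in 4 comparisons, with bars for the 95% confidence interval and filled points for an adjusted p under 0.05. The CYP1A1 and CYP1B1 values with dantrolene lie between 5.11 and 7.49, all other values lie below 2, and the LPC comparison has a filled point for AHR alone.

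The receptor itself behaved in another way. AHR (ENSSSCG00000030484, chromosome 9, 86511866 to 86555950) was lowest in the vehicle group, at 21.9, 25.5, and 20.6 CPM. With LPC it stood at 69.5, 62.4, and 55.8 CPM, with dantrolene at 35.2, 86.0, and 54.7 CPM, and with LPC + dantrolene at 62.0, 25.8, and 61.6 CPM. The order of the means was LPC (62.5 ± 6.85 CPM), dantrolene (58.6 ± 25.6 CPM), LPC + dantrolene (49.8 ± 20.8 CPM), and vehicle (22.7 ± 2.55 CPM), and the 3 treated groups overlapped one another. Vehicle lay below every treated library, although LPC + dantrolene replicate 2 was above the highest vehicle library by less than 1 CPM. Such a gap was common, as 16.6% of all genes tested lay wholly above vehicle with LPC and 16.1% with dantrolene. With LPC + dantrolene the share was 4.71%. AHR rose with LPC by 1.46 on the log2 scale (SE 0.34, adjusted p = 0.00135), with dantrolene by 1.37 (SE 0.34, adjusted p = 0.00343), and with LPC + dantrolene by 1.14 (SE 0.34, adjusted p = 0.0224). The call with dantrolene was lost without dantrolene replicate 2 (0.99, adjusted p = 0.150). The call with LPC + dantrolene was lost when the isolation was fitted as a block (1.15, adjusted p = 0.0706), in a fit of these groups alone (1.24, adjusted p = 0.0678), and when any of 6 libraries was left out, namely each vehicle replicate, LPC replicate 2, and LPC + dantrolene replicates 1 and 3 (0.95 to 1.23, adjusted p 0.0613 to 0.214). Without LPC + dantrolene replicate 2, which stood apart, it was 1.50 (adjusted p = 6.19e-05).

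With LPC alone the receptor transcript rose, and none of the other 7 genes passed the test. The share of 1 in 8 is to be read against 8.54% of all genes called higher and 0.144% called lower. The log2 fold changes of the targets with LPC were −0.28 for CYP1A1 (95% CI −1.75 to 1.20), 0.70 for CYP1B1 (−0.15 to 1.54), 0.14 for TIPARP (−0.53 to 0.81), −0.38 for AHRR (−1.06 to 0.30), and 0.12 for NQO1 (−0.53 to 0.77). CYP1B1 passed the threshold in a fit of these 2 groups alone (0.78, adjusted p = 0.0487), and its value was 0.15 without LPC replicate 1 and 1.42 without vehicle replicate 2, called in neither. CYP1A1 with LPC rested on 12 counts, all in replicate 1, without which it was called lower (adjusted p = 0.0480) against libraries at 0 counts. In the plot of receptor against target transcripts the LPC libraries overlap the dantrolene libraries in AHR and lie below all of them in CYP1B1, TIPARP, and AHRR.

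**Figure D3:**
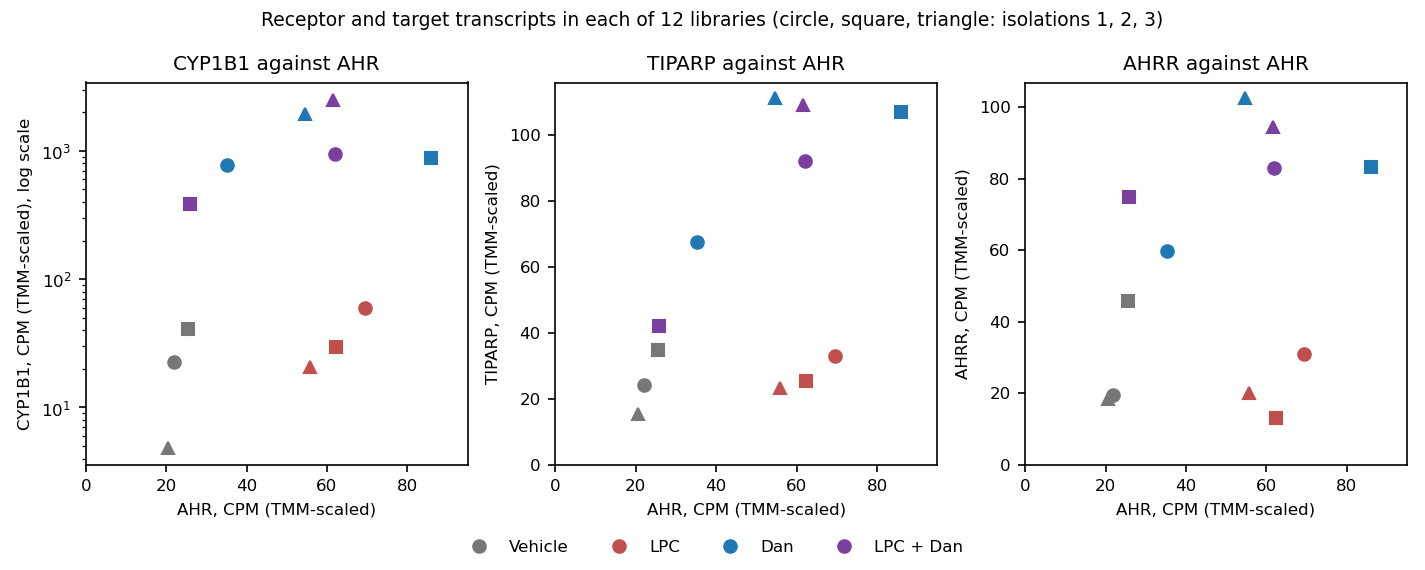
CYP1B1 (log axis), TIPARP, and AHRR against AHR, all in CPM, with 1 point per library, colored by group and with the symbol giving the isolation. LPC libraries lie at 55.8 to 69.5 CPM of AHR with CYP1B1 at 20.6 to 60.1 CPM, and dantrolene libraries at 35.2 to 86.0 CPM of AHR with CYP1B1 at 769 to 1943 CPM.

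ARNT (ENSSSCG00000006646, chromosome 4, 98333431 to 98390012), the obligate partner of AHR, was at 135, 69.8, and 98.5 CPM in vehicle, 84.8, 82.8, and 93.1 CPM with LPC, 89.3, 83.6, and 88.6 CPM with dantrolene, and 96.2, 69.7, and 80.3 CPM with LPC + dantrolene. The groups overlapped, with vehicle covering nearly the whole range. Its log2 fold change with dantrolene was −0.21 (95% CI −0.84 to 0.41), and its sign turned with scaling by total counts alone (0.022). ALDH3A1 (ENSSSCG00000018044, chromosome 12, 59895476 to 59905900), an aldehyde dehydrogenase induced by AHR in liver and cornea, was near the floor, with 6 to 55 counts per library. Its intervals were wide, from −1.46 to 1.69 with dantrolene and from −0.87 to 2.25 with LPC + dantrolene, so they bound a change only loosely.

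Adding dantrolene to LPC was compared with LPC alone. Here 4 of the 8 genes rose, against 0.219% of all genes called higher and 0.288% called lower. They were CYP1A1 (7.49, SE 0.59, adjusted p = 4.45e-17), CYP1B1 (5.11, SE 0.50, adjusted p = 1.27e-12), AHRR (1.97, SE 0.35, adjusted p = 0.000528), and TIPARP (1.57, SE 0.35, adjusted p = 0.00826). Without LPC + dantrolene replicate 2 these values were 7.74, 5.53, 2.03, and 1.87. By summed counts, CYP1A1 was 189 times its LPC level, with a counting interval of 108 to 366 that leaves out the spread between libraries. The fitted fold was 179, with a 95% CI of 79.4 to 405. The fitted CYP1A1 value rested on LPC replicate 1, since the other LPC libraries had 0 counts, and without it the fit gave 12.5, which is no measure of size. The CYP1B1 value was 4.17 without LPC + dantrolene replicate 3. The TIPARP call was lost with the isolation as a block (adjusted p = 0.0728), with scaling by total counts alone (adjusted p = 0.0988), in a fit of these groups alone (adjusted p = 0.118), and without any 1 of the LPC replicates or LPC + dantrolene replicate 3 (1.30 to 1.73, adjusted p 0.0542 to 0.257). The AHRR call was lost without LPC replicate 2 (1.71, adjusted p = 0.124). NQO1 had a log2 fold change of 1.21 (SE 0.33) with an adjusted p of 0.0722, and passed the threshold with DESeq2 (adjusted p = 0.0416), with no filter on low counts (adjusted p = 0.0491), and without LPC + dantrolene replicate 1 (1.42, adjusted p = 0.0186). Without LPC + dantrolene replicate 2 the NQO1 value was 0.80 and was not called. AHR differed by −0.33 (95% CI −0.996 to 0.341) between LPC + dantrolene and LPC.

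The addition of LPC to dantrolene was examined in the same way. None of the 8 genes was called by edgeR, at an unadjusted p under 0.05 (0 genes), or by DESeq2 (0 genes), with 0.0151% of all genes called higher and 0.00757% lower. The log2 difference was 0.08 for CYP1A1 (95% CI −0.72 to 0.87), 0.09 for CYP1B1 (−0.74 to 0.92), 0.04 for AHRR (−0.63 to 0.71), −0.23 for TIPARP (−0.90 to 0.44), −0.03 for NQO1 (−0.67 to 0.62), and −0.23 for AHR (−0.90 to 0.43). These intervals bound the change in either direction and do not show that the levels were equal.

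The question of whether LPC acted differently with dantrolene than without it was put to an interaction term, which is the log2 fold change of LPC with dantrolene less that without. AHR was the only 1 of the 8 genes called, with −1.70 (SE 0.48, adjusted p = 0.0209), as the receptor rose by 1.46 with LPC alone and differed by −0.23 (95% CI −0.90 to 0.43) when LPC was added to dantrolene. Over all genes, 4.49% had a negative and 0.159% a positive interaction. The AHR call was lost with the isolation as a block (−1.68, adjusted p = 0.0806) and on total counts alone (−1.86, adjusted p = 0.0649). It was also lost without vehicle replicate 1 or 2, LPC replicate 1 or 2, or dantrolene replicate 2 (−1.31 to −1.79, adjusted p 0.0664 to 0.239). The interaction of CYP1A1 was 0.36 (95% CI −1.32 to 2.03) and that of CYP1B1 −0.61 (−1.79 to 0.58), the latter called without LPC + dantrolene replicate 3 (−1.55, adjusted p = 0.0480).

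All 6 libraries with dantrolene were then set against all 6 without it, by averaging the effect over the presence of LPC. CYP1A1 rose by 7.31 on the log2 scale (SE 0.41, adjusted p = 6.40e-26), CYP1B1 by 5.42 (SE 0.36, adjusted p = 7.24e-22), TIPARP by 1.76 (SE 0.25, adjusted p = 5.50e-07), AHRR by 1.76 (SE 0.25, adjusted p = 5.68e-07), and NQO1 by 1.28 (SE 0.23, adjusted p = 0.000143). These 5 calls also held in the blocked fit and when each library was left out. Without LPC replicate 1 the CYP1A1 value was 9.83, which again came from LPC libraries at 0 counts and is no measure of size. Over all genes 2.55% were called higher and 1.45% lower. For these 5 genes the 6 libraries with dantrolene did not overlap the 6 without it, as was so in the same direction for 30 of all genes tested (0.227%). AHR had 0.52 (SE 0.24, adjusted p = 0.288), and 0.70 (adjusted p = 0.0101) without LPC + dantrolene replicate 2. For LPC averaged over dantrolene none of the 8 genes was called, with 1 at an unadjusted p under 0.05 and 0 by DESeq2, against 3.1% of all genes higher and 0.0303% lower. AHR had 0.61 (SE 0.24, adjusted p = 0.200) there, and 0.80 (adjusted p = 0.00268) without LPC + dantrolene replicate 2. With total counts in place of TMM factors, the median log2 fold change of all genes with dantrolene against vehicle moved from −0.11 to 0.13, and the CYP1A1 and CYP1B1 values became 7.39 and 5.97.

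The genes around the receptor were described from lists. Of the chaperone complex and coactivators (HSP90AA1, HSP90AB1, PTGES3, ARNT2, NCOA1, NCOA2, NCOA3, and EP300), 8 of 8 were tested and 0 were called in any comparison. Their log2 fold changes averaged over LPC lay between −0.24 and 0.64, with a median of 0.073 against −0.0027 over all genes. Of the enzymes that make or open kynurenine and related AHR ligands, 4 of 9 were tested and 0 were called. For both lists 0 called is near the share over all genes, at most 8.54% higher and 4.49% lower in any comparison. IDO1 had 3 counts in all libraries and TDO2 had 0, so the enzymes for the first step of the kynurenine route were at or below the floor.

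Among the other factors that pair with ARNT, 3 of 7 had enough counts, and 1 of them was called, higher than vehicle in all 3 treated groups. Of all genes, 8.54% were called higher with LPC, 7.54% with dantrolene, and 6.23% with LPC + dantrolene. HIF1A, the oxygen-regulated subunit of HIF-1, stood at 142 ± 48.9 CPM in vehicle, 403 ± 47.6 CPM with LPC, 393 ± 153 CPM with dantrolene, and 420 ± 254 CPM with both. Its log2 fold changes against vehicle were 1.50, 1.47, and 1.56 (SE 0.36 each, adjusted p 0.00143 to 0.00269). HIF1A thus rose in the same 3 comparisons as AHR, all of which share the vehicle libraries. The HIF target list had 0 of 13 called with LPC, and 4 of 13 lower with dantrolene and with LPC + dantrolene, where 1.26% and 0.9% of all genes were lower. Averaged over LPC, 6 of 13 fell and 0 rose, against 1.45% and 2.55% of all genes, with a median of −0.68 against −0.0027. They were BNIP3 (mitophagy, −1.35, SE 0.24, adjusted p = 9.58e-05), ANKRD37 (−1.28), LDHA (lactate dehydrogenase, −1.03), ADM (adrenomedullin, −0.87), P4HA1 (collagen prolyl hydroxylase, −0.78), and PGK1 (glycolysis, −0.76). The averages differ from single comparisons. P4HA1 had means of 388 CPM in vehicle, 531 CPM with LPC, 326 CPM with dantrolene, and 214 CPM with both. PGK1 was not called with dantrolene against vehicle (−0.87, adjusted p = 0.0986). With LPC + dantrolene against LPC, 1 of 13 was lower, where 0.288% of all genes were. In the blocked fit 3 of 13 were lower averaged over LPC and 2 of 13 with dantrolene against vehicle, and on total counts alone 3 of 13 and 1 of 13. Averaged over LPC, 3 were lower without vehicle replicate 2, LPC replicate 2 or 3, or dantrolene replicate 1 or 2, and 9 without LPC + dantrolene replicate 2. With dantrolene against vehicle, 1 was lower without vehicle replicate 2 or dantrolene replicate 1 or 2, 2 with RLE scaling factors (DESeq2-style median ratios) and without vehicle replicate 1 or 3, LPC replicate 1 or 2, or dantrolene replicate 3, and 5 without LPC + dantrolene replicate 2. With LPC + dantrolene against vehicle, 1 was lower in a fit of these groups alone and without vehicle replicate 2, 2 on total counts alone and without LPC + dantrolene replicate 1 or 3, and 6 without its replicate 2.

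Other targets of AHR did not move together. Of 14 listed genes 9 were tested, and averaged over LPC 3 rose and 2 fell, against 2.55% and 1.45% of all genes, with a median of 0.62 against −0.0027. GSTA1, a glutathione transferase, had 0 counts in every vehicle library and 18, 22, and 87 with dantrolene, at least 37.3-fold higher when vehicle was set to 3 counts over the group. With LPC + dantrolene it had only 2, 7, and 0 counts, and with LPC 0, 7, and 0, and its interaction was called (adjusted p = 0.024), as was its rise averaged over LPC (adjusted p = 0.00941). It passed the filter on low counts only through the dantrolene libraries, so these calls are no separate support for its rise there. GSTA1 belongs to a family of near-identical genes whose reads counting can split. SERPINB2, a plasminogen activator inhibitor, rose by 1.78 averaged over LPC (SE 0.44, adjusted p = 0.00824). Its levels were 1.05 ± 0.578 CPM in vehicle, 0.967 ± 0.529 CPM with LPC, 3.08 ± 2.71 CPM with dantrolene, and 3.91 ± 2.62 CPM with both. With dantrolene against vehicle SERPINB2 was not called (1.54, SE 0.62, adjusted p = 0.134), and the groups overlapped. NFE2L2, which encodes NRF2, rose by 0.88 (SE 0.24, adjusted p = 0.0204) and, like AHR, was higher than vehicle already with LPC (1.51, SE 0.35, adjusted p = 0.00104). NFE2L2 was higher by 1.63 with dantrolene against vehicle (SE 0.35, adjusted p = 0.000503), and differed by 0.13 (SE 0.34, adjusted p = 0.979) between LPC + dantrolene and LPC. STC2, a secreted glycoprotein, fell by 0.75 (SE 0.23, adjusted p = 0.0440), and CYP2S1, on at most 15 counts per library, fell by 3.42 (SE 1.07, adjusted p = 0.0499). In the blocked fit 1 of 9 rose and 0 fell. When each library was left out in turn, 0 to 3 rose and 0 to 1 fell, so the STC2 and CYP2S1 calls were never both kept.

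**Figure D4:**
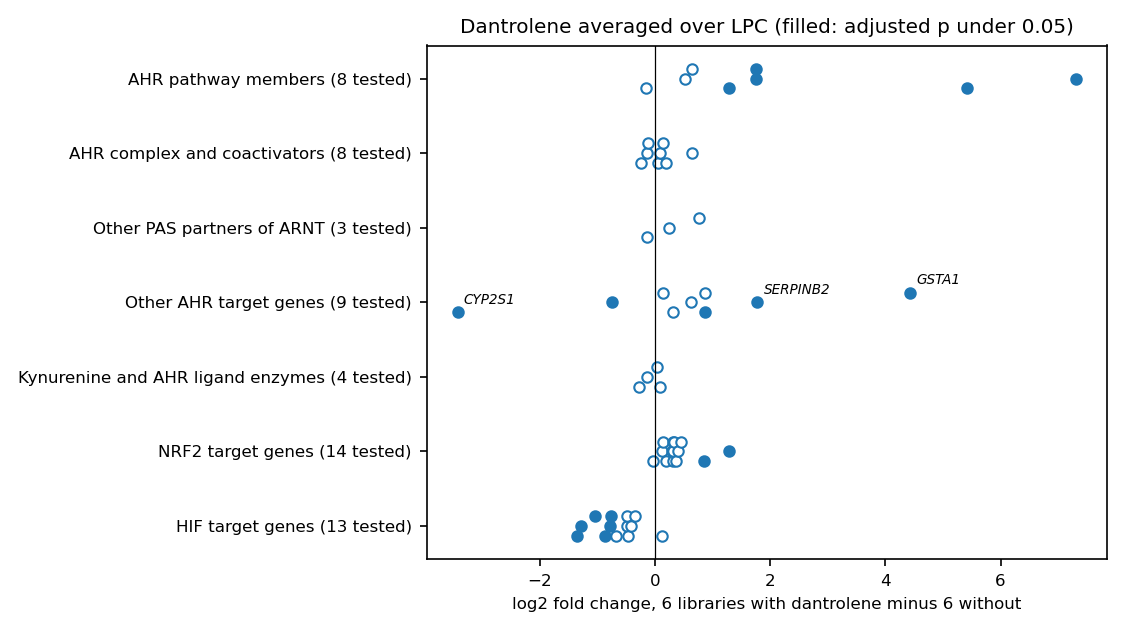
Log2 fold change of dantrolene averaged over LPC (horizontal axis) for every tested gene of each list, 1 point per gene, filled where the adjusted p was under 0.05, with small vertical offsets for legibility. The 5 filled points of the 8 pathway genes lie between 1.28 and 7.31, and the 6 filled points of the HIF list between −1.35 and −0.76.

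NQO1 was set beside 14 other NRF2 targets, all of them tested. Averaged over LPC, 2 of 14 rose and 0 fell, against 2.55% and 1.45% of all genes, with a median of 0.32 against −0.0027. SLC7A11, the cystine transporter subunit, rose by 1.28 (SE 0.26, adjusted p = 0.000801), and GCLC, the catalytic subunit of glutamate-cysteine ligase, by 0.86 (SE 0.24, adjusted p = 0.0185), the number of calls falling to 1 in the blocked fit and without any of vehicle replicates 2 and 3, LPC replicates 2 and 3, dantrolene replicates 2 and 3, and LPC + dantrolene replicates 1 and 3. Against vehicle SLC7A11 was higher by 2.41 with dantrolene (SE 0.38, adjusted p = 6.34e-06), but LPC + dantrolene differed from LPC by 0.16 (SE 0.36, adjusted p = 0.971), and the SLC7A11 interaction was called (−2.25, SE 0.52, adjusted p = 0.00369). SLC7A11 was also higher with LPC alone (2.23, SE 0.38, adjusted p = 1.13e-05), as was GCLM (1.07, SE 0.34, adjusted p = 0.0318), a comparison in which NQO1 had 0.12 (95% CI −0.53 to 0.77). HMOX1 and TXNRD1, both well-known NRF2 targets, had 0.13 (SE 0.24) and 0.19 (SE 0.23) averaged over LPC, with adjusted p of 0.980 and 0.937.

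The genes most like CYP1A1 and CYP1B1 across the 12 libraries were found by Pearson's r with the mean of their standardized log2 CPM. Among the 8 genes themselves, r was 0.96 for TIPARP, 0.95 for AHRR, 0.78 for NQO1, 0.41 for AHR, 0.36 for ALDH3A1, and −0.29 for ARNT, where all points share the libraries and the treatments. TIPARP and AHRR ranked 3 and 4 of 13216, after the CYP1 genes that define the profile, and AHR ranked 1617. Outside the pathway the 10 highest were TLR2 (0.92), ZBTB16 (0.91), GCLC (0.90), GPX3 (0.90), SRGN (0.89), CDKN1A (0.88), KIF12 (0.88), and 3 genes without a symbol. GPX3, the secreted glutathione peroxidase, stood at 9.52 ± 4.14 CPM in vehicle, 8.75 ± 2.98 CPM with LPC, 25.6 ± 4.37 CPM with dantrolene, and 32.0 ± 7.02 CPM with both. CDKN1A, the p21 inhibitor of the cell cycle, stood at 396 ± 118, 290 ± 65.2, 655 ± 139, and 672 ± 96.6 CPM in the same order.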

How the data were processed

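RNA-sequencing libraries of 12 samples were analysed from the deposited table of counts per gene, which the authors made by alignment, counting, and adjustment for a batch, not named, with ComBat, and which holds whole numbers not scaled for library size. Their text names STAR and the submitters' processing notes name HISAT2 2.0.5, R 4.1.1, DESeq2 1.32.0, and Sscrofa11.1, so the aligner is uncertain. Since the tests take no account of what that adjustment estimated, their p-values can be too small. The authors' tables of 4 comparisons (mean, log2 fold change, standard error, Wald score, p, and adjusted p) were not used.

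Low counts were filtered by filterByExpr (edgeR 4.0.16, R 4.3.3), and 1 quasi-likelihood model with TMM factors and no term but the group was fitted to all libraries. The threshold was 0.05 on p-values adjusted by Benjamini-Hochberg over all genes tested. Errors of means are SDs (n = 3). Alternatives were RLE factors, total counts alone, no filter, a mean of at least 10 counts, DESeq2 1.42.0, a block for the isolation, a fit of just the groups in question, and each library left out. Gene spans came from RefSeq's Sscrofa11.1 annotation. The code was tested on simulated data.

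Members and lists were chosen with earlier results of these data known, and list and member counts under the alternatives were added after seeing the data. A listed gene is not reported here. Named were the 8 genes, list members that were called or that a sentence on their list needed, and the 10 genes most like CYP1A1 and CYP1B1.

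Same-numbered libraries share an isolation per the labels. The main tests did not pair them, and the isolation entered only as a block in 1 of the alternatives. Deviations from group means correlated with a median of −0.15 (−0.54 to 0.21) within an isolation and 0.11 between isolations, which an adjustment for the isolation, if that was the batch, would set.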

Additional observations from a re-analysis of the deposited data

Results flagged for a closer look

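The effect of LPC on the AHR transcript differed with and without dantrolene in a test of the difference itself, the interaction term of edgeR's fit (−1.70 on the log2 scale, SE 0.48, adjusted p = 0.0209). AHR stood at 20.6 to 25.5 CPM in the 3 vehicle libraries and 55.8 to 69.5 CPM in the 3 with LPC, and at 35.2 to 86.0 CPM with dantrolene and 25.8 to 62.0 CPM with LPC + dantrolene. Without LPC + dantrolene replicate 2, the library that stood apart, the interaction was −1.46 (adjusted p = 0.0219). The call was lost with the isolation as a block (adjusted p = 0.0806) and on total counts alone (adjusted p = 0.0649). It was also lost without vehicle replicate 1 or 2, LPC replicate 1 or 2, or dantrolene replicate 2 (adjusted p 0.0664 to 0.239). Among all genes 4.49% had a called negative interaction.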

How the results depend on the processing

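The 5 genes called with dantrolene averaged over LPC (CYP1A1, CYP1B1, TIPARP, AHRR, and NQO1) kept their direction and their call under every alternative. Over all member values and alternatives, 1096 kept direction and side of the threshold, 26 lost the call, 8 gained it, and 60 turned in sign, all of the last being uncalled values. With the isolation as a block, the calls lost were those of AHR (LPC + dantrolene against vehicle and interaction) and TIPARP (LPC + dantrolene against LPC), and no other of the 8 genes changed call. Member calls in the interaction went from 1 to 0 with the block and on total counts alone, and those with LPC from 1 to 2 in a fit of these groups alone. On total counts alone ARNT turned to 0.022 with dantrolene, 0.0023 averaged over LPC, and −0.039 in the interaction, and TIPARP to 0.055 for LPC averaged over dantrolene. The cause of these changes was not tested.

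Counts over all genes moved more. The order below is 3 comparisons with vehicle (LPC, dantrolene, both agents), both agents against LPC, both agents against dantrolene, interaction, dantrolene averaged, and LPC averaged. With the block, genes lower were 8, 77, 59, 10, 0, 277, 84, and 1, and genes higher moved to 9 (against LPC), 3 (interaction), 107 (dantrolene averaged), and 2 (LPC averaged). On total counts alone, genes lower were 9, 61, 52, 2, 0, 232, 72, and 1, and genes higher moved to 5 (against LPC), 1 (against dantrolene), 2 (interaction), and 3 (LPC averaged). In fits of the groups compared, genes lower were 57, 290, 31, 5, and 0 in the first 5 comparisons, and genes higher moved to 522 (LPC + dantrolene against vehicle), 11 (against LPC), and 1 (against dantrolene). With no filter there were 29 lower with LPC, 5 higher against dantrolene, 52 higher in the interaction, and 10 lower for LPC averaged. A mean of at least 10 counts gave 13 higher in the interaction and 9 lower for LPC averaged. DESeq2 gave 102 lower with dantrolene, 6 higher in the interaction, and 254 higher and 1 lower for LPC averaged.

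Leaving out 1 library at a time, genes higher ranged over 668 to 1623, 377 to 1515, 466 to 1706, 3 to 53, 1 to 5, 0 to 48, 84 to 1201, and 2 to 1287 in the same order, and genes lower over 10 to 69, 52 to 284, 42 to 393, 6 to 87, 0 to 1, 4 to 889, 104 to 464, and 0 to 56. The highest counts came without LPC + dantrolene replicate 2 in all comparisons with vehicle, in LPC + dantrolene against LPC, and in both averaged comparisons. Members called higher ranged over 5 to 6 with dantrolene, 4 to 6 with LPC + dantrolene against vehicle, and 5 to 6 for dantrolene averaged. They ranged over 2 to 5 higher against LPC, 0 to 2 lower in the interaction, and 0 to 1 higher for LPC averaged. With LPC 0 to 1 was lower, the 1 being CYP1A1 without LPC replicate 1 (adjusted p = 0.0480). Log2 values that turned in sign, uncalled where they did, ranged as follows. With LPC they were −0.43 to 0.046 (ARNT), −0.74 to 0.18 (AHRR), −0.054 to 0.46 (TIPARP), −0.051 to 0.24 (NQO1), and −5.32 to 0.41 (CYP1A1), the lowest being a fit to LPC libraries at 0 counts and no measure of size. With dantrolene they were −0.42 to 0.051 (ARNT) and −0.32 to 0.45 (ALDH3A1), and for LPC + dantrolene against LPC −0.21 to 0.011 (ARNT). Against dantrolene they were −0.50 to 0.15 (AHR), −0.22 to 0.012 (ARNT), −0.16 to 0.23 (AHRR), −0.51 to 0.070 (TIPARP), −0.33 to 0.45 (CYP1A1), −0.85 to 0.62 (CYP1B1), −0.43 to 0.19 (NQO1), and −0.10 to 1.06 (ALDH3A1). In the interaction they were −0.13 to 0.34 (ARNT), −0.14 to 0.78 (AHRR), −0.33 to 5.40 (CYP1A1), and −0.62 to 0.064 (NQO1). For LPC averaged they were −0.35 to 0.11 (AHRR), −0.18 to 0.14 (TIPARP), −2.62 to 0.24 (CYP1A1), −0.077 to 0.75 (CYP1B1), −0.12 to 0.15 (NQO1), and −0.48 to 0.31 (ALDH3A1). DESeq2 gave no adjusted p for 1 of the 8 genes, ALDH3A1, in the interaction. CYP1A1 without dantrolene and ALDH3A1 throughout are limited by depth.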
